A study of Mus musculus with 2 samples.

Results

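Muscle stem cells were a small cluster of mononucleated cells from dystrophic skeletal muscle, with 113 of the 17813 cells in the deposited table, of which 32 came from the mdx library and 81 from the cKO library. They were taken as the cells that the authors' clustering numbered 18, and the name rests on the number of cells. Of the 20 clusters, only cluster 18 has the same number of cells in both genotypes as the study's supporting values list for muscle stem cells. The study marks them by Pax7, and Myf5, Myod1 and Chodl are further markers of the type, but no value per gene was analysed here, so the name was not checked against its markers and the loss of Spp1 was not checked in the cKO cells. Muscle stem cells were 0.447% of the mdx library, with a 95% exact interval from 0.306 to 0.631, and 0.760% of the cKO library, with one from 0.604 to 0.944. The other clusters are named below by the same matching of cell numbers, alone or summed over clusters.

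Both libraries came from male mdx mice, which carry a mutation in the dystrophin gene and are a model of Duchenne muscular dystrophy. The cKO mice were Spp1 floxed mice crossed to Lyz2Cre on the mdx background, in which loxP sites flank exons 2 and 3 of Spp1 and Cre is driven by the myeloid gene Lyz2, so the driver is aimed at myeloid cells and not at muscle stem cells. The controls are labelled as mdx in their title and library name and as control WT in their genotype, and whether they carry the floxed allele is not given in the labels. Limb and diaphragm muscles were pooled from 3 mice per genotype, aged 3 months in the study's text and 12 weeks in its figure legend. Since 1 library was made per genotype and the mice are not told apart in it, no test was run, and each interval covers counting error only. The digest was made for mononucleated cells in general, and muscle stem cells were few in it.

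Muscle stem cells, also called satellite cells, lie between the myofiber and its basal lamina. In resting adult muscle most are quiescent. After injury they leave quiescence, enter the cell cycle and divide as myoblasts, and their progeny either fuse into myofibers or return to quiescence. Quiescent satellite cells are known for little cytoplasm and few transcripts, and they enlarge as they activate. In mdx muscle, cycles of degeneration and repair keep drawing on this pool. Each cell of the table has its unique molecular identifiers (UMIs, each marking 1 captured transcript), its detected genes, the part of its UMIs from mitochondrial genes, and a score for the S and for the G2/M phase, which in the usual Seurat scoring is the mean level of genes of that phase less that of control genes.

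Most cells of the cluster had low cell cycle scores, and a minority had high ones. In all, 26 of 113 cells, 23.0% (15.6 to 31.9), had an S or G2M score above 0.2, and these are called high-score cells. The median over the cluster of the higher of both scores was -0.0138 and the upper quartile 0.155. Among high-score cells the median was 0.572 and the highest value 1.05. Few cells lay near the threshold: 5 of 113 were within 0.05 of it, the nearest inside at 0.2001 and 0.245 and the nearest outside at 0.185 and 0.184. The threshold cuts a range of scores and does not by itself define a type of cell.

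The G2M score led in most high-score cells. It was the higher of both scores in 19 of 26. Both scores exceeded 0.2 in 13 cells, the G2M score alone in 12 and the S score alone in 1 cell, a cKO cell with an S score of 0.835 and a G2M score of 0.169. The highest G2M scores were 1.05, 0.882, 0.827 and 0.815, each beside an S score of 0.2 or less. A group of 5 cKO cells called S lay together, with S scores from 0.4995 to 0.601 and G2M scores from 0.311 to 0.473. High S and high G2M scores were therefore both present among the high-score cells, and the phase of a cell was not tested beyond its scores.

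**Figure D1:**
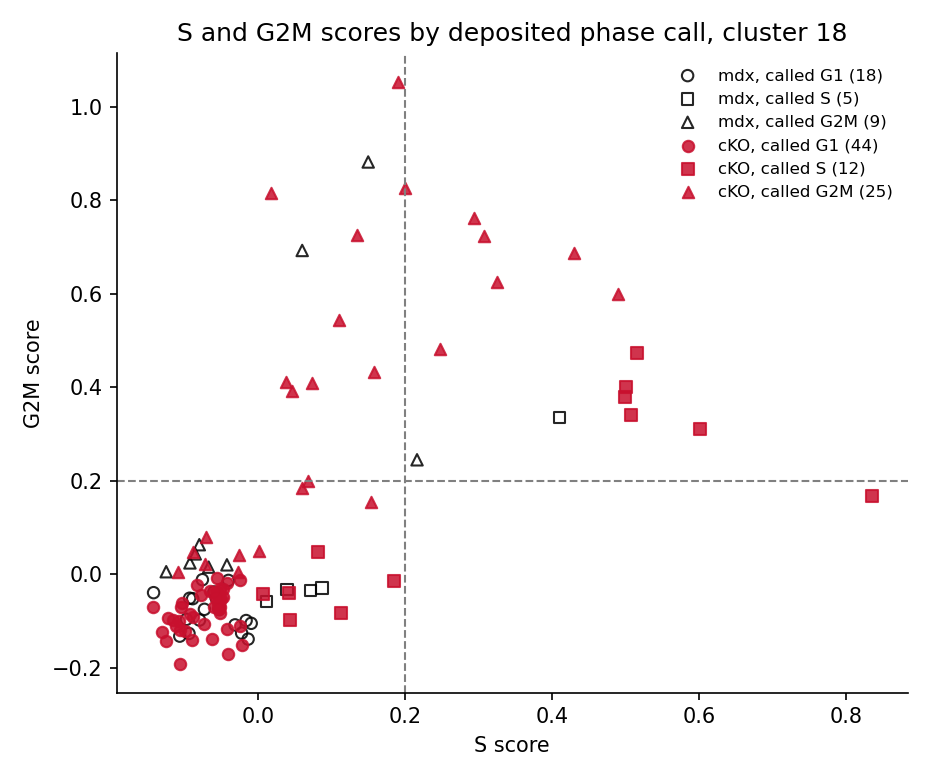
G2M score (y axis) against S score (x axis) for the 113 cells of cluster 18, with mdx as open black and cKO as filled red symbols, the deposited phase call as symbol shape, and dashed lines at 0.2. The 62 cells called G1 sit in the lower left corner, where 25 cells called S or G2M lie close to them, and 13 cells exceed 0.2 on both scores.

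The deposited phase call was looser than the score. A cell was called G1 where both scores were below 0 and otherwise S or G2M by the higher score, a rule that gave the deposited call in all 17813 cells. Of the 51 cells of the cluster called S or G2M, 25 had no score above 0.2 and 21 had none above 0.1. These 25 cells had a median higher score of 0.0437, a median of 3230 UMIs (quartiles 1769 and 9453) and a mitochondrial share of 6.34%, against 24981.5 UMIs and 5.40% in the high-score cells. The 62 cells called G1 had a median of 5098 UMIs (quartiles 2800 and 7476) and a mitochondrial share of 5.97%. Cycling was not read from the phase call alone.

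High-score cells held more UMIs and more genes than low-score cells in both libraries. In mdx, the 4 high-score cells held 16659, 29028, 32518 and 38728 UMIs, while the 28 low-score cells ranged from 1437 to 35628 with a median of 4219.5 (95% order-statistic interval 3031 to 6633). All 4 lay above 25 of the 28 low-score cells. In cKO, the 22 high-score cells ranged from 2086 to 39940 UMIs with a median of 23032.5 (8322 to 30596), and the 59 low-score cells from 705 to 33730 with a median of 5426 (3216 to 6850). The ranges overlapped in both libraries, but the intervals of the medians did not overlap in cKO. The ratio of the medians was 7.29 in mdx and 4.24 in cKO.

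Genes detected ran the same way. The median was 5422.5 genes in high-score and 1786.5 in low-score mdx cells, a ratio of 3.04. It was 4869.5 and 1933 in cKO cells, a ratio of 2.52. High-score cells were 4 of 32 cells in mdx and carried 38.3% of the cluster's 305373 UMIs there, and they were 22 of 81 in cKO and carried 52.3% of 866041. Scores at 1 common depth were not computed, as that needs counts of single genes, and the part of depth in the scores was not tested beyond the UMI bins described next.

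**Figure D2:**
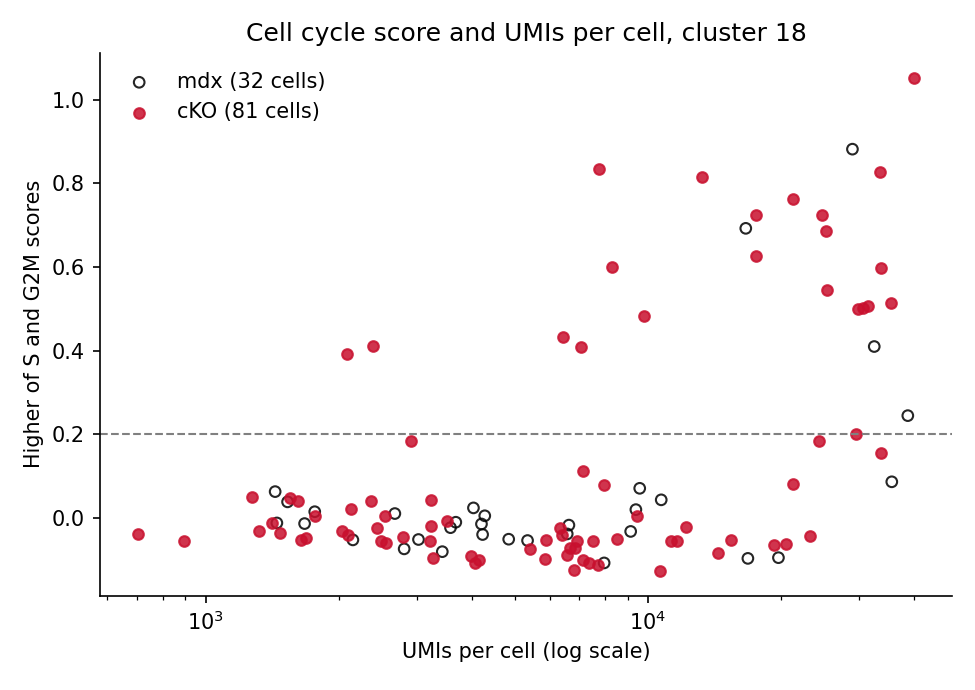
Higher of the S and G2M scores (y axis) against the cell's UMIs (x axis, log scale) in cluster 18, with mdx as open black and cKO as filled red circles and a dashed line at the threshold of 0.2. Of the 113 cells, 87 lie on or below the line, while 15 of the 21 cells with over 20000 UMIs lie above it.

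Depth alone did not separate the cells. Of the 21 cells with over 20000 UMIs, 15 were high-score (12 of 17 in cKO and 3 of 4 in mdx), and 6 were low-score. One mdx cell with 35628 UMIs had an S score of 0.0870 and a G2M score of -0.0292. At the other end, 2 cKO cells with 2086 and 2398 UMIs had G2M scores of 0.393 and 0.412. Spearman's rho between the higher score and UMIs was 0.230 over the 32 mdx cells and 0.353 over the 81 cKO cells. Cells of a library share its preparation and depth, so these are descriptions.

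The share of high-score cells was also taken in 3 equal bins of the cluster's UMIs, parted at 3543 and 9435 UMIs. In the low bin it was 0 of 10 cells in mdx, which allows a share of up to 30%, and 2 of 28 in cKO (7.14%, 0.877 to 23.5). In the middle bin it was 0 of 13 in mdx, which allows up to 23.1%, and 4 of 24 in cKO (16.7%, 4.74 to 37.4). In the high bin it was 4 of 9 in mdx (44.4%, 13.7 to 78.8) and 16 of 29 in cKO (55.2%, 35.7 to 73.6). In each library the share was highest in the high bin.

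Cells of all other clusters were taken in the same bins. In the high bin 44.3% of them in mdx (540 of 1218, 41.5 to 47.2) and 30.8% in cKO (416 of 1351, 28.3 to 33.3) were high-score. The mdx share of muscle stem cells, 44.4%, was close to that of the other cells, and the cKO share, 55.2%, was higher. UMIs were not equal within the high bin, where muscle stem cells had medians of 19747 (mdx) and 21344 (cKO) and the other cells 13716.5 and 12237. Over 20000 UMIs, 71.4% of muscle stem cells (47.8 to 88.7) and 61.0% of the other cells (222 of 364, 55.8 to 66.0) were high-score over both libraries, and the second interval lay inside the first. In the low bin the other cells stood at 1.10% in mdx and 2.27% in cKO, and in the middle bin at 6.46% and 6.91%. The cKO intervals of muscle stem cells held these cKO shares in both bins. Most high-score cells of other types in the high bin came from cluster 11 of the macrophages and cluster 13 of the neutrophils, where 96.5% and 97.5% of all cells were high-score. Without these, a choice made on the score itself that lowers the share, the other cells of the high bin stood at 16.2% in mdx and 14.1% in cKO. On the same choice they stood at 0.734% and 1.40% in the low bin and at 3.64% and 2.36% in the middle bin. That middle-bin cKO share lay below the interval of muscle stem cells (4.74 to 37.4). Over 20000 UMIs they stood at 42.0% over both libraries (35.7 to 48.5).

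**Figure D3:**
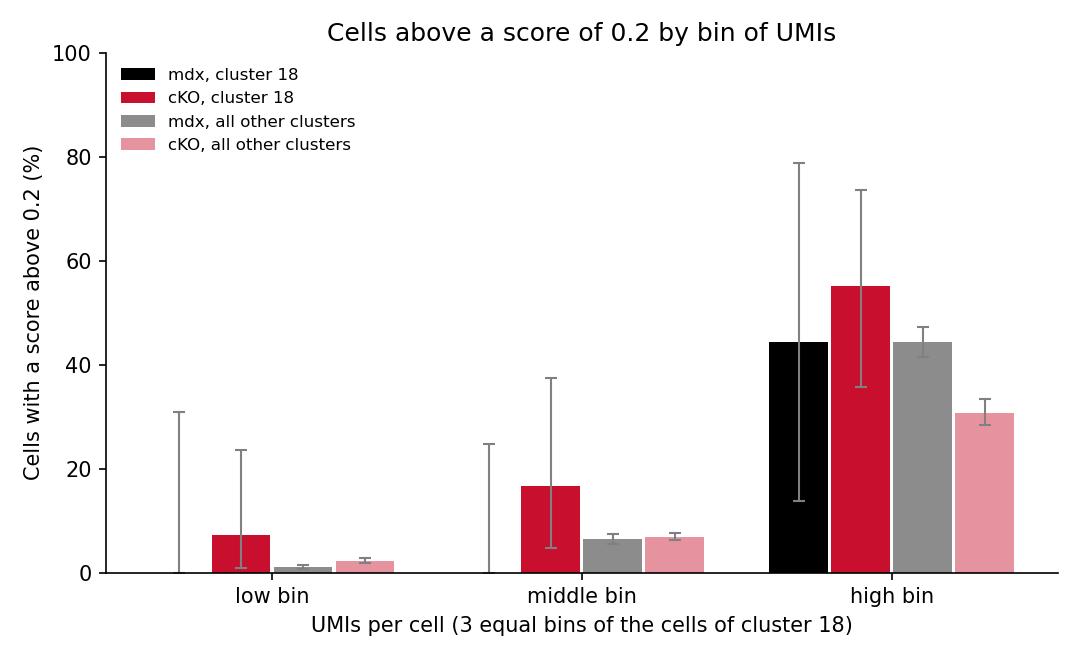
Percent of cells with a score above 0.2 (y axis) in 3 bins of UMIs per cell (x axis), for cluster 18 (solid) and for all other clusters (pale) in mdx (black or grey) and cKO (red or pink), with whiskers for the 95% exact interval of each share. In the high bin cluster 18 stands at 44.4% and 55.2%, against 44.3% and 30.8% in the other cells.

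Between the genotypes, the high-score share of muscle stem cells was 12.5% in mdx (4 of 32, 3.51 to 29.0) and 27.2% in cKO (22 of 81, 17.9 to 38.2). The ratio of cKO to mdx was 2.17, with a counting interval of 0.813 to 5.81. Genotype and library cannot be told apart, so these values describe 2 libraries. Weighting both libraries to the same spread over the UMI bins brought the shares to 14.9% and 26.4%. In the other clusters the high-bin share ran the other way, at 44.3% in mdx and 30.8% in cKO. Their shares were higher in cKO in the low bin (1.10% in mdx, 2.27% in cKO) and middle bin (6.46% and 6.91%). Muscle stem cells called S or G2M were 14 of 32 in mdx (43.8%, 26.4 to 62.3) and 37 of 81 in cKO (45.7%, 34.6 to 57.1), a ratio of 1.04 (0.660 to 1.65). Over both libraries this call covered 45.1% of the cluster, and from 8.05% (cluster 2) to 100% (cluster 11) of other clusters. It covered 71.6% of neutrophil cluster 7, where 0.152% of cells were high-score, so 45.1% was not unusual in this table.

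Depth was also compared between the genotypes on each side of the threshold. The cluster's median stood at 4564 UMIs (3431 to 9400) for mdx and at 6850 (5426 to 7946) for cKO, and cKO over mdx was 1.5. Over low-score cells, at 4219.5 and 5426 UMIs, it was 1.29. In genes the ratio was 1.29 over the cluster and 1.08 over low-score cells. Among high-score cells the median was higher in mdx, with 30773 UMIs against 23032.5, and all 4 mdx values lay within the cKO range. The library with the higher high-score share, cKO, also had the higher median over the cluster, and the part of the one in the other was not tested beyond the weighting by UMI bin. Most other clusters had the opposite order of depth. Median UMIs were higher in mdx in clusters 0 to 15, with 8251 against 5685 in cluster 0 and 15601 against 10102 in cluster 11. They were higher in cKO in clusters 16 to 19.

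The mitochondrial share was high in muscle stem cells and slightly lower in high-score cells. It was 6.13% of UMIs (5.31 to 6.90) at the median in mdx and 5.96% (5.39 to 6.56) in cKO. In mdx the 4 high-score cells had shares of 4.22%, 4.24%, 6.58% and 8.33%, with a median of 5.41%, and the low-score cells a median of 6.13% (5.50 to 6.90). In cKO the medians were 5.40% (4.94 to 6.18) in high-score and 6.39% (5.42 to 7.28) in low-score cells. The intervals overlapped in cKO, and in mdx the 4 values spread over more than the difference. At a score threshold of 0.3 the 3 remaining mdx cells had a median of 6.58% against 5.98% in the rest, which turns the direction in mdx.

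The same order of medians was seen in the high bin. There the median was 5.48% in the 20 high-score cells and 6.23% in the 18 low-score cells, with ranges of 3.26% to 8.33% and 0.0266% to 8.19% that overlap. Mitochondrial share and UMIs were nearly unrelated over the cluster (Spearman's rho 0.0102 over 113 cells). The table holds no cell above 9.99% mitochondrial UMIs, although the study states a limit of 20%. Of the 113 muscle stem cells, 10 lay above 9%, of which 1 was a high-score cell. How muscle stem cells above that value would move the median was not tested.

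**Figure D4:**
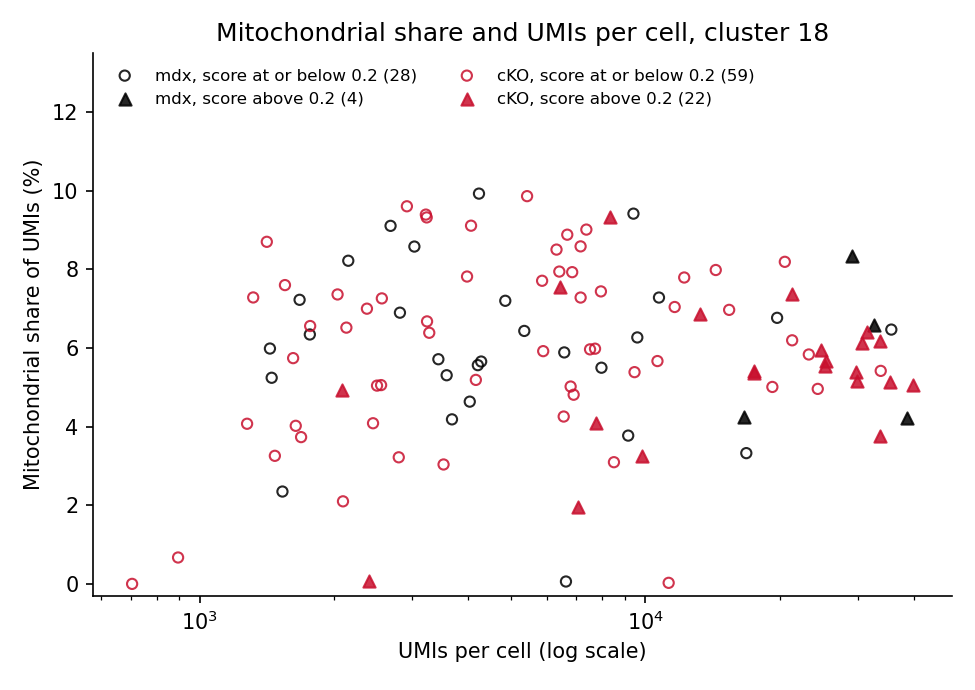
Mitochondrial share of UMIs (y axis, %) against UMIs per cell (x axis, log scale) in cluster 18, with mdx in black and cKO in red, high-score cells as filled triangles and low-score cells as open circles. High-score cells with over 9435 UMIs lie between 3.26% and 8.33%, and 5 cells of the cluster lie below 1%.

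A few cells stood apart from the rest of the cluster. Of the 6 cells under 2% mitochondrial UMIs, 3 were in the low bin of UMIs: 1 cKO cell with 705 UMIs and a share of 0%, 1 with 894 UMIs and 0.671%, and 1 with 2398 UMIs, 0.0834% and a G2M score of 0.412. A further 2 combined a share near 0 with few genes for their depth. These were an mdx cell with 6633 UMIs, 1406 genes and 0.0603%, and a cKO cell with 11276 UMIs, 1933 genes and 0.0266%. Their genes were 0.661 and 0.601 of the median of the 100 cells of other clusters nearest in UMIs in the same library. The last of the 6 was a high-score cKO cell with 7048 UMIs and 1.96%.

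Most muscle stem cells showed the opposite, with more genes than cells of other types at the same depth. The genes detected were above the median of the 100 nearest cells in 30 of 32 mdx cells and 68 of 81 cKO cells, by a median factor of 1.15 in mdx and 1.10 in cKO. The factor was alike in high-score and low-score cells, at 1.14 and 1.15 in mdx and 1.09 and 1.10 in cKO. Their mitochondrial share was above that of the nearest cells in 28 of 32 and 67 of 81 cells, by 2.60 and 2.19 percentage points at the median. For the deepest cells the 100 nearest spanned a wide range, from 21126 to 49737 UMIs for the cKO cell with 39940.

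Beside the other 19 clusters, muscle stem cells had the highest median mitochondrial share in each library and over both, by a small margin. Over both it was 5.96% (5.54 to 6.47), and B cell cluster 10 at 5.76% and smooth muscle cluster 19 at 5.62% lay within that interval. The next highest was 5.89% in mdx (cluster 19) and 5.77% in cKO (cluster 10). Their UMIs had the widest quartiles over both libraries and in cKO, with an upper quartile 5.14 and 6.02 times the lower, and the second widest in mdx at 3.32, after the endothelial cluster 16 at 4.04. The share of cells above 9% mitochondrial UMIs was 9.38% in mdx (3 of 32), below cluster 19 at 23.8% (5 of 21), and 8.64% in cKO (7 of 81), below stromal cluster 6 at 9.30% (4 of 43). By high-score share the cluster ranked 5 of 20 in both libraries, after clusters 11, 13, 14 and 15. Smooth muscle cells, another rare type in the digest, had 1 high-score cell of 75 (1.33%). Their median was 3227 UMIs with an upper quartile of 5407, against 6575 and 14383 in muscle stem cells. The part of depth in that difference was not tested. These are descriptions, since the clusters were built from the same cells.

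High-score cells held more UMIs than low-score cells in every cluster with at least 10 of each, and the ratio of medians was 5.90 in muscle stem cells over both libraries, the highest of 11 clusters. B cell cluster 15 followed at 3.85 and stromal cluster 0 at 3.49, while it was 1.10 in the macrophage cluster 11. The ranking was not repeated within each library, where the ratio in muscle stem cells was 7.29 in mdx and 4.24 in cKO. The mitochondrial share was lower in high-score cells in 9 of the 11, with a difference of medians (high-score minus low-score) of -0.865 percentage points in muscle stem cells and -1.20 in the red blood cell cluster 14.

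**Figure D5:**
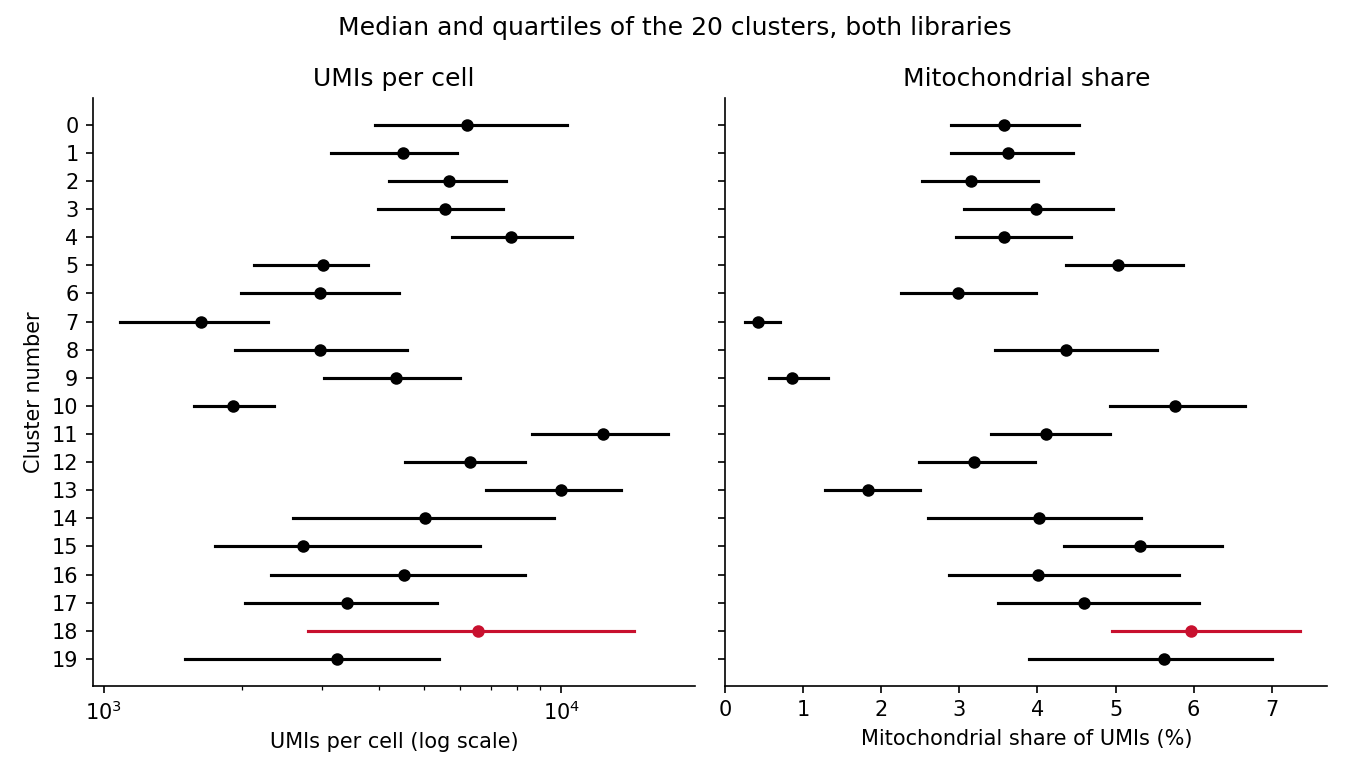
Median (point) and quartiles (line) of UMIs per cell (left, log scale) and of mitochondrial share of UMIs (right, %) for the 20 clusters over both libraries, with cluster 18 in red. Its UMIs spread from 2796 to 14383 between quartiles, and its median mitochondrial share is 5.96%, with cluster 10 close behind at 5.76%.

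Doublets were not called, and a barcode with many UMIs can hold more than 1 cell. Of muscle stem cells, 22 of 81 in cKO (27.2%, 17.9 to 38.2) and 5 of 32 in mdx (15.6%, 5.28 to 32.8) ranked in the top 5% of their library by UMIs, and 14 and 3 of these were high-score. Without them the high-score share was 13.6% (8 of 59) in cKO and 3.70% (1 of 27) in mdx. The 8 cKO cells left had a median of 7395 UMIs. The part of doublets and of free RNA in the scores was not tested. Cell barcodes shared by both libraries numbered 20, of which 1 was a muscle stem cell of mdx with 16842 UMIs and a low score, its cKO counterpart being a cell of cluster 3 with 2186 UMIs.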

How the data were processed

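Libraries of mononucleated cells (10x Genomics, 3' chemistry) were processed with Cell Ranger 7 on mm10, as listed in the processing notes of the submitters, and normalized and clustered in Seurat. As deposited, UMIs and genes are whole-number counts per cell, the mitochondrial value is a fraction of UMIs (multiplied here into percent), and the S and G2M values are each a score with no stated gene list. The authors' columns for library, phase and cluster were used as deposited, with the library named Neg read as mdx and Pos as cKO. The stated limits of 200 to 1800 genes do not describe the table, since 69 of the 113 cells lie above 1800. The stated limit of 20% mitochondrial UMIs also differs from the table, where the highest share is 9.99%. No columns held comparisons.

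UMIs summed over all cells were 43185486 in mdx (7156 cells) and 59240298 in cKO (10657 cells). Shares were given exact (Clopper-Pearson) intervals, ratios of shares log intervals, and medians binomial order-statistic intervals (95% each, all counting error only). The intervals for shares and medians were tested on simulated data, and the log intervals were not. All were run with SciPy 1.17.1 and NumPy 2.4.6 (pandas 2.3.3, Python 3.11.15). A count of 0 was given an upper limit of 3 counts. The 4 mdx high-score cells are too few for a 95% interval of the median, so their range was used. All deposited cells were kept. The members, the threshold of 0.2 and the markers were chosen with earlier results of these data known. No gene was to be named with a value unless the table held values per gene. Alternatives were other score thresholds, each score alone, the phase call, filters on UMIs, genes and mitochondrial share, dropping each library's top 5% by UMIs, and weighting by UMI bin. Filters on the stated gene limits, a minimum of 2% mitochondrial UMIs and under 20000 UMIs were added after seeing the data.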

Additional observations from a re-analysis of the deposited data

Results flagged for a closer look

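The mitochondrial share moved opposite ways in the libraries when cells were split by the deposited phase call. In mdx the median was 6.30% in cells called S or G2M and 5.80% in cells called G1, a difference of 0.505 percentage points. In cKO it was 5.67% (5.37 to 6.41) and 6.18% (5.04 to 7.36), a difference of -0.515. The intervals overlapped in each library, so neither direction is clear of counting error. The difference between the libraries was not tested, since each genotype has 1 library.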

How the results depend on the processing

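The value stayed within the interval of the reported one under 102 alternatives and left it under 8. For the medians of the 4 mdx high-score cells that interval was their range, which no subset of these cells can leave. Dropping the top 5% by UMIs left 1 of them, with 16659 UMIs, and was counted as within. In cKO, dropping each library's top 5% by UMIs took the high-score share from 27.2% to 13.6% and the share called S or G2M from 45.7% to 33.9%. It took the cKO medians of high-score cells to 7395 UMIs, 2658 genes and 4.51% mitochondrial UMIs. The mdx high-score share went from 12.5% to 3.70%. That was counted as within only because its interval was wide (3.51 to 29.0). With the S score alone the cKO share above 0.2 was 14.8%. Splitting by phase call lowered the medians of the high side to 9495 UMIs and 2789.5 genes in mdx and to 9807 UMIs and 3120 genes in cKO. Of the settings chosen after seeing the data, the stated gene limits removed 24 of the 26 high-score cells. They gave a high-score share of 0% in mdx (0 of 14, which allows up to 21.4%) and 6.67% in cKO (2 of 30). Under 20000 UMIs the share was 3.57% in mdx and 15.6% in cKO. UMIs and genes were higher on the high-score side in each of the 7 settings run for them in each library, and the cKO share was above the mdx share in 12 of 12. These settings are not separate checks, since they share most cells. In mdx a threshold of 0.1 and minima of 1000 UMIs or 500 genes left the split unchanged. In cKO these minima gave the same medians as each other. The lower mitochondrial share held in 7 of 7 settings in cKO but not at a threshold of 0.3 or by phase call in mdx. With 1 library per genotype, differences between genotypes, libraries and mice cannot be told apart.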
